A study of Mus musculus with 15 samples.

Results

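The heat shock protein and chaperone genes of mouse whole blood were examined 6 h after a single compound, ABBV-075, or its vehicle. A gene belonged to the set if its symbol began with Hsp and one of the letters or digits of the family names, with Dnaja, Dnajb or Dnajc, or with Cct2 to Cct8 or Bag1 to Bag6, or if it was Hsf1, Hsf2 or Tcp1, and if a probe set annotated with that gene alone was on the array. The rule gave 89 genes of the 18193 that single-gene probe sets named. Where a gene had several probe sets, the one with the highest mean stood for it. Hsp90ab1 and Hsf1 have no single-gene probe set in the annotation used here and were not analysed here.

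Each of the 15 arrays held total RNA from the whole blood of 1 mouse, and there were 5 mice in each of 3 groups, given vehicle, 1 mg/kg ABBV-075 or 5 mg/kg ABBV-075. ABBV-075, also called mivebresib, blocks the bromodomains with which BET proteins hold on to acetylated histones at active genes. The labels give no strain, sex or age, and name no allele or second agent.

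Chaperones bind unfolded protein chains and help them reach or keep their native fold. HSP90 and HSP70 proteins do so with ATP, J-domain proteins bring clients to HSP70 and start its ATP cycle, nucleotide exchange factors such as the BAG proteins release the client, and chaperonins enclose it in a chamber. When unfolded protein accumulates in the cytosol, heat shock factors bind heat shock elements, repeats of nGAAn in alternating orientation, and when it accumulates in the endoplasmic reticulum, the unfolded protein response acts through other promoter elements.

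Promoter sequences are shown for 4 genes whose roles or values recur below, to let the 2 kinds of element be seen beside the values. They come from RefSeq's annotation of build GRCm38.p6, run 5′ to 3′ on the strand of the gene and end at the base before its start. Capitals mark the endoplasmic reticulum stress element, CCAAT and CCACG with a fixed gap between them, on either strand in the first 3 sequences, and the paired heat shock unit GAANNTTC in the last. The positions are chr2:34772010-34772089 on the plus strand for Hspa5, chr10:86705445-86705671 on the minus strand for Hsp90b1, chr14:118937812-118937931 on the plus strand for Dnajc3 and chr17:34959239-34959357 on the minus strand for Hspa1b.
Hspa5: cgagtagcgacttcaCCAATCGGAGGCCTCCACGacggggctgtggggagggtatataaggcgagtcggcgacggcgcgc
Hsp90b1: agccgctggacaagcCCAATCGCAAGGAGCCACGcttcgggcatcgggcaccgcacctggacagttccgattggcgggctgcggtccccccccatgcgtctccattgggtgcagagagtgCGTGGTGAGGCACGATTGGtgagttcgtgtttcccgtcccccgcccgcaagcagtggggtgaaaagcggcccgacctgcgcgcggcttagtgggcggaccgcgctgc
Dnajc3: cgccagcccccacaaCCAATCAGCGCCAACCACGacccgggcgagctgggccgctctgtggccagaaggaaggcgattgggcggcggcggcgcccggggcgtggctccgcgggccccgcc
Hspa1b: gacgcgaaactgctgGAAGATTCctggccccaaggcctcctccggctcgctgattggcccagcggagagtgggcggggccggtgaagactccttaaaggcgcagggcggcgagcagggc
Windows of 250 bases before to 50 bases after each start were found for 74 of the 89 genes, and Hsp90aa1 had none. The endoplasmic reticulum stress element, a motif chosen after the data had been seen, was in the windows of 3 of the 74 genes (4.05%), the 3 shown, against 37 of 27025 genes with a window (0.137%). The shares were not tested, and with a motif chosen this way they give no evidence about the set. GAANNTTC, which reads the same on both strands, was in 17 of the 74 (23%) against 9.04% of all genes. TTCNNGAA, its counterpart in the other orientation, was in 8 of the 74 (10.8%) against 9.6% of all genes. Neighbouring units of a longer heat shock element can be matched by both motifs, and 21 of the 74 genes held at least 1 of them (28.4%) against 17% of all genes. Windows of Hspd1 and Hspe1 overlap almost fully on opposite strands, so a shared stretch counts for both genes. The heat shock element shares were not tested either. The window of Hspa1b held 1 GAANNTTC, and both windows of Dnajb1 held neither motif. A match is a description of these letters and not of a bound site.

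Of the 89 genes, 70 were tested: 44 lay above a floor of 16 intensity units on all 15 arrays and 26 lay at it on at least 1 array. Another 8 lay above the floor on too few arrays, namely Dnajb3, Dnajc11, Dnajc27, Dnajc30, Dnajc4, Hspb3, Hspb9 and Cct6b. The other 11 lay at the floor on every array: Bag5, Hspa12b, Hspa1a, Hspa1l, Hspa2, Dnajb13, Dnajb7, Dnajc16, Dnajc24, Dnajc5g and Cct8l1. Hspa1a, a stress-inducible cytosolic HSP70, was therefore not measurable by its own probe set in any group. Values below are normalised intensities on a linear scale, and differences are on the log2 scale with the standard error of the limma fit.

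The arrays were not equal in brightness before normalisation, with median intensities of 3.61 to 25.4, and the 2 extremes were both 1 mg/kg arrays, replicate 1 the lowest and replicate 4 the highest. After normalisation, correlations between arrays ran from 0.675 to 0.921. Replicate 4 of the 1 mg/kg group held the highest value of 13 of the 70 genes (18.6%), against 10.7% of all genes tested, and replicate 1 that of 12 (17.1%), against 16.4%. Whole blood is a mixture, so fewer cells of a type and less RNA per cell cannot be told apart. All 8 tested monocyte markers, of 10 listed, were lower at 5 mg/kg than in vehicle, and their mean log2 level was 5.95 ± 0.09 at 5 mg/kg and 6.98 ± 0.28 in vehicle (SD, n = 5 each, exact permutation p = 0.00794, adjusted over 30 tests 0.0595). The monocyte markers ranged from 5.89 to 6.10 on the 5 mg/kg arrays and from 6.61 to 7.31 on the vehicle arrays. The 4 tested eosinophil and basophil markers, of 8 listed, were at 5.21 ± 0.36 at 5 mg/kg and 6.71 ± 0.37 in vehicle (exact permutation p = 0.00794, adjusted 0.0595). Of these, 3 were lower and 1 higher than in vehicle at both doses, with log2 differences from -3.32 to 0.17 at 5 mg/kg. This list holds Ear3, which had the smallest p of all genes tested in both comparisons with vehicle. The marker lists were chosen with earlier results of these data known, so their p-values are descriptive and give no independent support. The 4 tested dendritic cell markers, of 7 listed, were at 4.59 ± 0.20 at 5 mg/kg and 5.44 ± 0.16 in vehicle, with the same exact permutation p. Flt3, Xcr1 and Bst2 of the dendritic list, Ccr3, Mcpt8 and Epx of the eosinophil and basophil list, and Cd4 of the T cell list lay at the floor on every array. The B cell markers were at 6.97 ± 0.33 at 5 mg/kg and 6.56 ± 0.46 in vehicle (exact permutation p = 0.143), and the T cell markers at 7.85 ± 0.42 at 5 mg/kg and 7.41 ± 0.21 in vehicle (exact permutation p = 0.0635). All 7 tested neutrophil and all 7 platelet markers were lower than in vehicle at both doses, and of the NK cell markers 6 of 7 were lower at 5 mg/kg and 7 of 7 at 1 mg/kg. The means of these 3 lists at 5 mg/kg gave exact permutation p of 0.103 for neutrophil, 0.175 for platelet and 0.206 for NK cell markers, and red cell precursor markers 0.643. The 18S control signal was taken from the deposited values without normalisation, since control probe sets were left out of it. On the log2 scale this signal was 9.42 ± 0.42 at 5 mg/kg and 11.19 ± 0.94 in vehicle (exact permutation p = 0.00794, adjusted 0.0595). The same measures moved at 1 mg/kg, with log2 differences against vehicle of -0.70 for monocyte markers (exact permutation p = 0.0159), -0.70 for neutrophil markers (0.0317), -0.65 for dendritic cell markers (0.0238) and -0.84 for eosinophil and basophil markers (0.0238). The 18S signal was 9.97 ± 0.43 at 1 mg/kg (exact permutation p = 0.0397), and none of these 1 mg/kg values passed 0.05 after adjustment. At 5 mg/kg against 1 mg/kg, B cell markers differed by 0.60 (exact permutation p = 0.0556) and T cell markers by 0.68 (0.0635). Monocyte markers differed by -0.33 (0.103) and eosinophil and basophil markers by -0.65 (0.0476) between the doses. No marker list passed 0.05 after adjustment in that comparison. The part of cell makeup and of the 18S signal in the differences below was not tested. The 18S signal ran from 8.83 to 9.88 on the 5 mg/kg arrays and from 10.2 to 12.3 on the vehicle arrays. With no overlap between these groups, a fit with the 18S signal as a covariate cannot separate it from dose.

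At 5 mg/kg, no chaperone gene passed an adjusted p of 0.05 in limma against vehicle. Among all 12499 genes tested, 11 did (0.088%). At an unadjusted p under 0.05 there were 6 of the 70 (8.57%), against 7.78% of all genes, so the share was near the background. All 6 were higher at 5 mg/kg, where 3.51% of all genes were higher and 4.26% lower by this rule: Hsp90aa1, Dnajb1, Hspa5, Hspa1b, Dnajc9 and Dnajc18. Hspa1b reached the 5 arrays above the floor needed for testing only with its treated arrays. The log2 difference was above 0 for 42 of the 70 (60%) and for 46.6% of all genes. Its median was 0.06 over the 70 and -0.03 over all genes, with a range of -0.87 to 1.05. The median standard error over the 70 was 0.30 and the median half-width of the 95% interval was 0.64, so most single differences were smaller than the data could resolve.

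The arrays of the 5 mg/kg and vehicle groups did not overlap for 2 of the 70 genes (2.86%), against 2.57% of all genes. Hsp90aa1 was higher on every 5 mg/kg array, as were 1.11% of all genes, and Dnajc13 was lower, as were 1.46%. At 1 mg/kg against vehicle 0 of the 70 passed the adjusted threshold in limma, against 1 of all genes (0.008%), and 3 had an unadjusted p under 0.05 (4.29%, against 6.03% of all genes). Of these 3, Hsp90aa1 and Hspa1b were higher (1.97% of all genes) and Dnajc7 was lower (4.06% of all genes). At 5 mg/kg against 1 mg/kg 0 passed it, as for all genes (0%), and 2 had an unadjusted p under 0.05 (2.86%, against 7.9% of all genes). Both, Dnajb1 and Dnajc9, were higher at 5 mg/kg, where 5.26% of all genes were higher and 2.63% lower by this rule. In neither of these comparisons did the groups separate for any of the 70, where they did for 0.904% and 1.16% of all genes (0.72% all lower at 1 mg/kg than in vehicle, and 0.92% all higher at 5 mg/kg than at 1 mg/kg). Both comparisons with vehicle use the same 5 vehicle arrays, so their values are given side by side only.

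**Figure D1:**
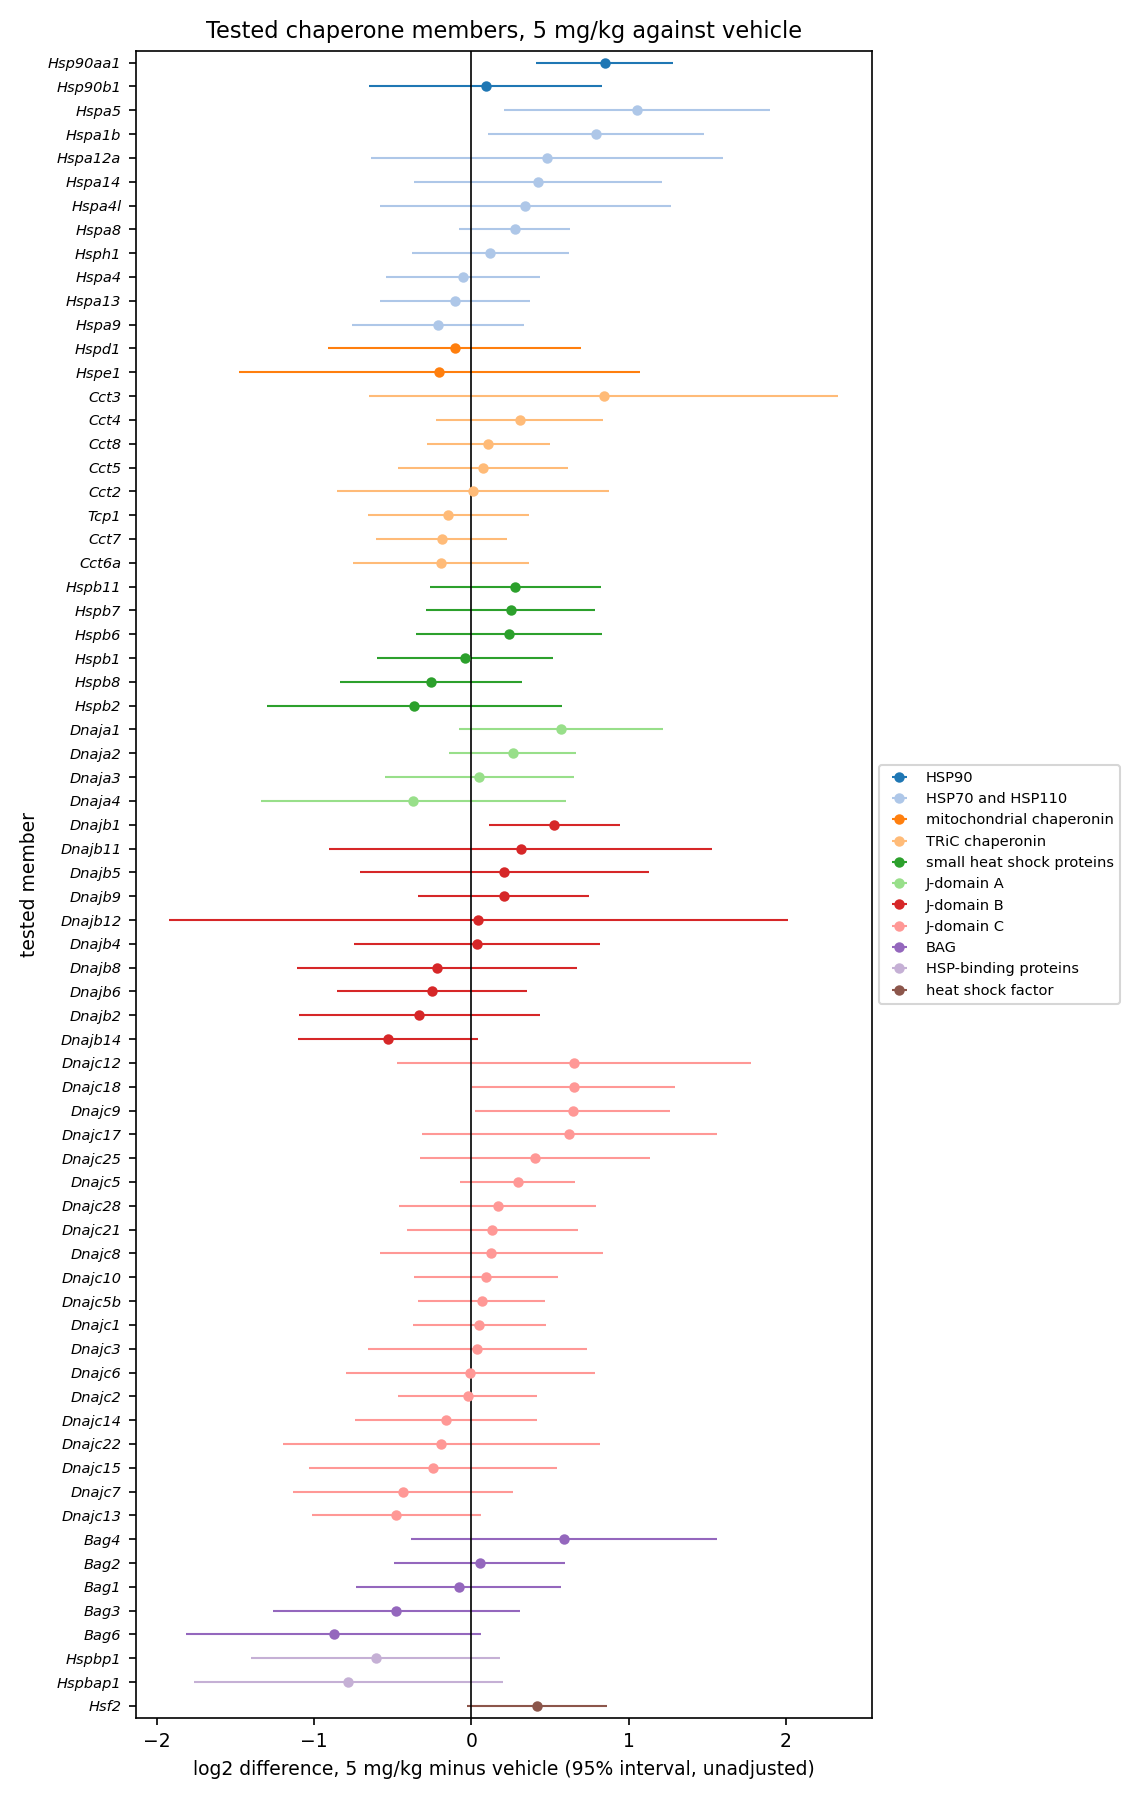
The log2 difference of each of the 70 tested genes at 5 mg/kg minus vehicle is plotted with its 95% interval from limma, unadjusted, and coloured by family. Differences ran from -0.87 for Bag6 to 1.05 for Hspa5, and the intervals of 6 genes, all on the positive side, left out 0.

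Of the pair of tested HSP90 genes, the cytosolic form had the larger difference. Hsp90aa1 encodes the inducible cytosolic HSP90, which matures kinases and steroid receptors. It measured 936, 730, 633, 600 and 616 at 5 mg/kg, against 335, 487, 375, 381 and 364 in vehicle. The 1 mg/kg arrays gave 416, 653, 618, 776 and 758. Every 5 mg/kg array lay above every vehicle array, while the lowest 1 mg/kg array, replicate 1, lay below the highest vehicle array. The log2 difference was 0.85 ± 0.21 at 5 mg/kg against vehicle, a 1.80-fold higher level (limma adjusted p = 0.152). The 1 mg/kg difference was 0.71 ± 0.21 against vehicle (limma adjusted p = 0.543), and 5 mg/kg differed from 1 mg/kg by 0.14 ± 0.21. With the gene's probe sets averaged, the difference against vehicle was 0.57 at 5 mg/kg and 0.38 at 1 mg/kg. With arrays weighted by their quality in limma the 5 mg/kg difference passed the threshold (0.86, adjusted p = 0.0384), and over all alternatives its adjusted p ran from 0.0384 to 0.9996.

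Hsp90b1 encodes GRP94, the HSP90 of the endoplasmic reticulum. It measured 288, 293, 247, 299 and 220 at 5 mg/kg, against 385, 253, 219, 255 and 185 in vehicle, and 145, 215, 263, 788 and 228 at 1 mg/kg. The groups overlapped, with 1 bright array at 1 mg/kg, and the log2 difference was 0.09 ± 0.35 at 5 mg/kg against vehicle. With the 18S signal as a covariate it was 1.02 (limma adjusted p = 0.588).

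Of the 10 tested HSP70 and HSP110 genes, 7 were higher and 3 lower at 5 mg/kg than in vehicle, with a median log2 difference of 0.31. At 1 mg/kg 5 were higher and 5 lower, with a median of 0.00. Hspa5 encodes BiP, the HSP70 of the endoplasmic reticulum and a regulator of its unfolded protein response. It measured 193, 179, 347, 306 and 197 at 5 mg/kg, against 203, 130, 74, 125.7 and 76 in vehicle, and 76, 156, 213, 406 and 116 at 1 mg/kg. Only vehicle replicate 1 reached into the range of the 5 mg/kg arrays, and the 1 mg/kg arrays spanned both. The log2 difference was 1.05 ± 0.40 at 5 mg/kg against vehicle, a 2.08-fold higher level (limma adjusted p = 0.475), and 0.53 ± 0.40 at 1 mg/kg (adjusted p = 0.893). With the 18S covariate, which did not overlap between 5 mg/kg and vehicle, the 5 mg/kg difference became 1.93. The promoters of Hspa5, Hsp90b1 and Dnajc3 hold the endoplasmic reticulum stress element shown above. Their log2 differences at 5 mg/kg against vehicle were 1.05 ± 0.40, 0.09 ± 0.35 and 0.04 ± 0.33, and the part of the element was not tested.

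Hspa1b encodes a stress-inducible cytosolic HSP70 that is nearly identical to Hspa1a, so its probe sets may read both. It measured 36, 44, 20, 36 and 30 at 5 mg/kg, against 28, 20, 16, 16 and 16 in vehicle, and 16, 24, 35, 58 and 47 at 1 mg/kg. It lay above the floor on 5 of 5 arrays at 5 mg/kg, 4 of 5 at 1 mg/kg and 2 of 5 in vehicle, and the groups overlapped. It was thus tested only because of the treated arrays, where it was higher, so its differences are descriptive. The log2 difference against vehicle was 0.79 ± 0.32 at 5 mg/kg (limma adjusted p = 0.559) and 0.80 ± 0.32 at 1 mg/kg (limma adjusted p = 0.782). So near the floor the size depends on where the floor is set: with a floor of 32 the 5 mg/kg difference was 0.16, and with the 18S covariate 1.49.

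Hspa8 encodes the constitutive cytosolic HSP70, HSC70. It measured 1053, 1101, 1284, 1428 and 1516 at 5 mg/kg, against 979, 1173, 1020, 1082 and 978 in vehicle. The 1 mg/kg values were 1185, 872, 1057, 1132 and 1051. The 3 brightest arrays were all 5 mg/kg arrays, but the groups overlapped, and the log2 difference was 0.28 ± 0.17 (limma adjusted p = 0.767), which was 0.44 without scaling between arrays. Hspa9, the mitochondrial HSP70 mortalin, was at 66.5 to 99.7 at 5 mg/kg, 66.5 to 160 at 1 mg/kg and 66.3 to 115 in vehicle. Its log2 difference was -0.48 ± 0.26 at 5 mg/kg against 1 mg/kg (limma adjusted p = 0.678) and -0.21 ± 0.26 at 5 mg/kg against vehicle. The difference between the doses was -0.07 when its probe sets were averaged, and only 1 of its 4 tested probe sets was higher at 1 mg/kg than in vehicle (-0.32 to 0.27). Hspa4 and Hsph1, HSP110 proteins that act as exchange factors for HSP70, lay above the floor on 6 and 7 of 15 arrays, and differed by -0.05 ± 0.23 and 0.12 ± 0.24 at 5 mg/kg against vehicle.

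The pair of genes for the mitochondrial chaperonin did not separate the groups. Hspd1 encodes HSP60 and Hspe1 its lid, HSP10, and the genes lie head to head. Hspd1 measured 197, 160, 204, 176 and 130 at 5 mg/kg, against 317, 171, 160, 166 and 147 in vehicle, and 107, 167, 181, 653 and 160 at 1 mg/kg. Hspe1 measured 73.2, 62.3, 63.4, 87.5 and 78.2 at 5 mg/kg, against 154, 101, 48.1, 85.6 and 62.3 in vehicle, and 16, 53.5, 101, 429 and 61.1 at 1 mg/kg. Both were high on vehicle replicate 1 and highest on 1 mg/kg replicate 4, and both were lowest among the 1 mg/kg arrays on replicate 1. The log2 differences at 5 mg/kg against vehicle were -0.11 ± 0.38 and -0.20 ± 0.60, and both turned positive without vehicle replicate 1 (0.09 and 0.02) and with the 18S covariate (0.94 and 1.17).

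Of the 8 tested genes of the cytosolic chaperonin TRiC, which folds actin and tubulin, 5 were higher and 3 lower at 5 mg/kg than in vehicle, with a median log2 difference of 0.04. At 1 mg/kg 1 was higher and 7 lower, with a median of -0.11. Tcp1, its first subunit, differed by -0.15 ± 0.24 at 5 mg/kg against vehicle, Cct2 by 0.01 ± 0.41 and Cct8 by 0.11 ± 0.18. The sign for Cct2 turned in several alternatives. Of the 6 tested genes with Hspb symbols, grouped as small heat shock proteins by name alone, 3 were higher and 3 lower at 5 mg/kg. Hspb1, HSP27 in human cells, was at 78.7 to 262 at 5 mg/kg and 110 to 150 in vehicle, with a log2 difference of -0.04 ± 0.26.

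**Figure D2:**
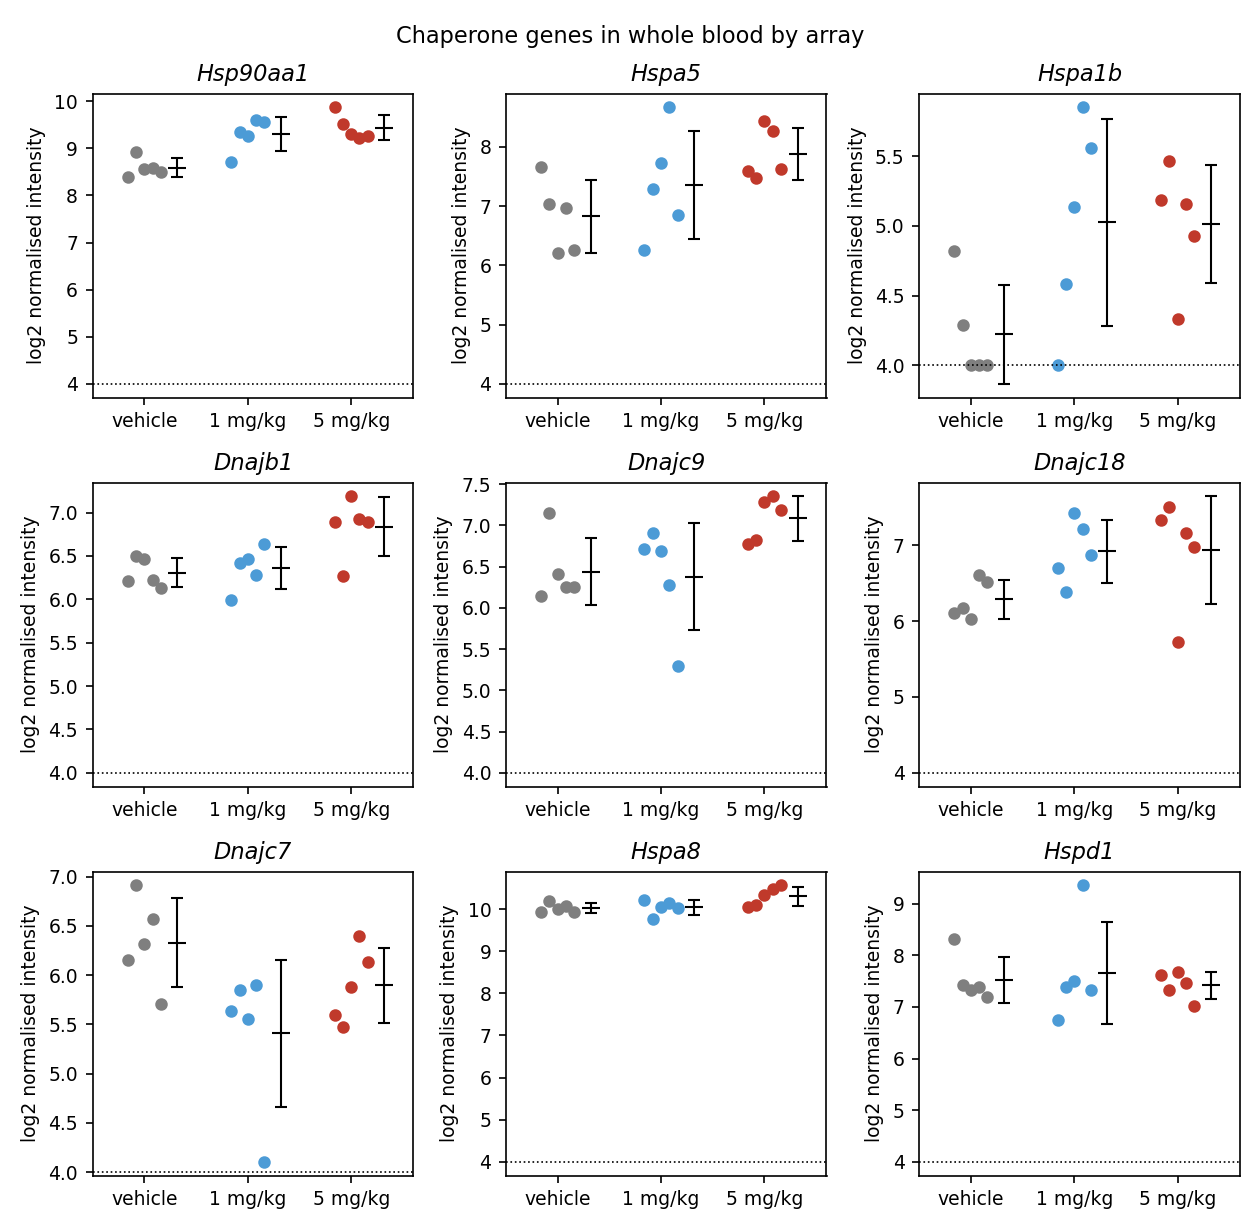
Each point is the log2 normalised intensity of 1 array for 9 chaperone genes, with the mean and SD of 5 arrays per group beside it and the floor as a dotted line. All 5 mg/kg arrays lie above all vehicle arrays for Hsp90aa1, while for the other 8 genes the groups overlap.

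Among the J-domain genes, 34 of 44 were tested, and 22 were higher and 12 lower at 5 mg/kg than in vehicle, with a median log2 difference of 0.06. Dnajb1 encodes HSP40, the main J-domain partner of stress-inducible HSP70 in the cytosol. It measured 119, 77, 146, 122 and 119 at 5 mg/kg, against 74, 91, 88, 75 and 70 in vehicle, and 64, 86, 88, 78 and 99 at 1 mg/kg. On 4 of 5 arrays at 5 mg/kg it was above every array of the other groups, with replicate 2 within their range. The log2 difference was 0.53 ± 0.20 at 5 mg/kg against vehicle (limma adjusted p = 0.465), 0.48 ± 0.20 at 5 mg/kg against 1 mg/kg (limma adjusted p = 0.563), and 0.05 ± 0.20 at 1 mg/kg against vehicle.

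Dnaja1, a J-domain partner of HSC70 in the cytosol, measured 150, 155, 261, 252 and 203 at 5 mg/kg, against 125.8, 220, 95, 146 and 111 in vehicle. The groups overlapped, and the log2 difference was 0.57 ± 0.31 (limma adjusted p = 0.727), which was 0.94 with the 18S covariate. Dnajc9 encodes a J-domain protein that also binds histones. It measured 109, 113, 156, 163 and 146 at 5 mg/kg, against 71, 142, 85, 76 and 76 in vehicle, and 105, 121, 103, 78 and 39 at 1 mg/kg. Vehicle replicate 2 alone reached into the range at 5 mg/kg. The log2 difference was 0.64 ± 0.29 at 5 mg/kg against vehicle (limma adjusted p = 0.614) and 0.71 ± 0.29 at 5 mg/kg against 1 mg/kg (limma adjusted p = 0.563), which was 0.44 without 1 mg/kg replicate 5. B and T cell marker means were also higher at 5 mg/kg than at 1 mg/kg, and their part was not tested.

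Dnajc18 measured 161, 181, 53, 143 and 125.9 at 5 mg/kg, against 69, 72, 65, 97 and 91 in vehicle, and 104, 84, 172, 149 and 117 at 1 mg/kg. On 4 of 5 arrays at 5 mg/kg it was above every vehicle array, and replicate 3 was below them all. The log2 difference against vehicle was 0.65 ± 0.30 at 5 mg/kg (limma adjusted p = 0.64) and 0.63 ± 0.30 at 1 mg/kg (limma adjusted p = 0.831), and with the mean over the gene's probe sets it was 0.28 at 5 mg/kg.

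Dnajc7 encodes TPR2, a co-chaperone that passes clients between HSP70 and HSP90. It measured 48, 45, 59, 84 and 70 at 5 mg/kg and 50, 58, 47, 60 and 17 at 1 mg/kg, against 71, 120, 80, 95 and 52 in vehicle. Only vehicle replicate 5 lay within the 1 mg/kg range. The log2 difference was -0.92 ± 0.33 at 1 mg/kg against vehicle (limma adjusted p = 0.739), and -0.60 without 1 mg/kg replicate 5. At 5 mg/kg it was -0.43 ± 0.33. Dnajc13 encodes a J-domain protein of endosomes. It measured 79, 73, 36, 64 and 80 at 5 mg/kg, against 84, 92, 98, 82 and 92 in vehicle, and 155, 74, 98, 67 and 84 at 1 mg/kg. Every 5 mg/kg array lay below every vehicle array, by a log2 difference of -0.48 ± 0.25 (limma adjusted p = 0.727), which was -0.27 without 5 mg/kg replicate 3.

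The remaining J-domain genes named by the selection rule had wide spreads. Dnajb11, an endoplasmic reticulum partner of BiP, was at 90, 70, 55, 79 and 16 at 5 mg/kg and at 101, 16, 31, 16 and 16 at 1 mg/kg, against 111, 42, 43, 34 and 22 in vehicle. It differed by 1.02 ± 0.58 between 5 and 1 mg/kg (limma adjusted p = 0.689) and by 0.31 ± 0.58 between 5 mg/kg and vehicle, which ran from 0.06 to 1.2 over the alternatives. Dnajc22 differed by -0.84 ± 0.48 at 5 mg/kg against 1 mg/kg (limma adjusted p = 0.689) and by -0.19 ± 0.48 at 5 mg/kg against vehicle. Dnajc2, a ribosome-associated J-domain protein, differed by -0.32 ± 0.21 at 1 mg/kg (limma adjusted p = 0.872) and by -0.02 ± 0.21 at 5 mg/kg against vehicle. Dnajc3, an endoplasmic reticulum J-domain protein also known as p58IPK, differed by 0.04 ± 0.33 at 5 mg/kg and 0.51 ± 0.33 at 1 mg/kg.

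**Figure D3:**
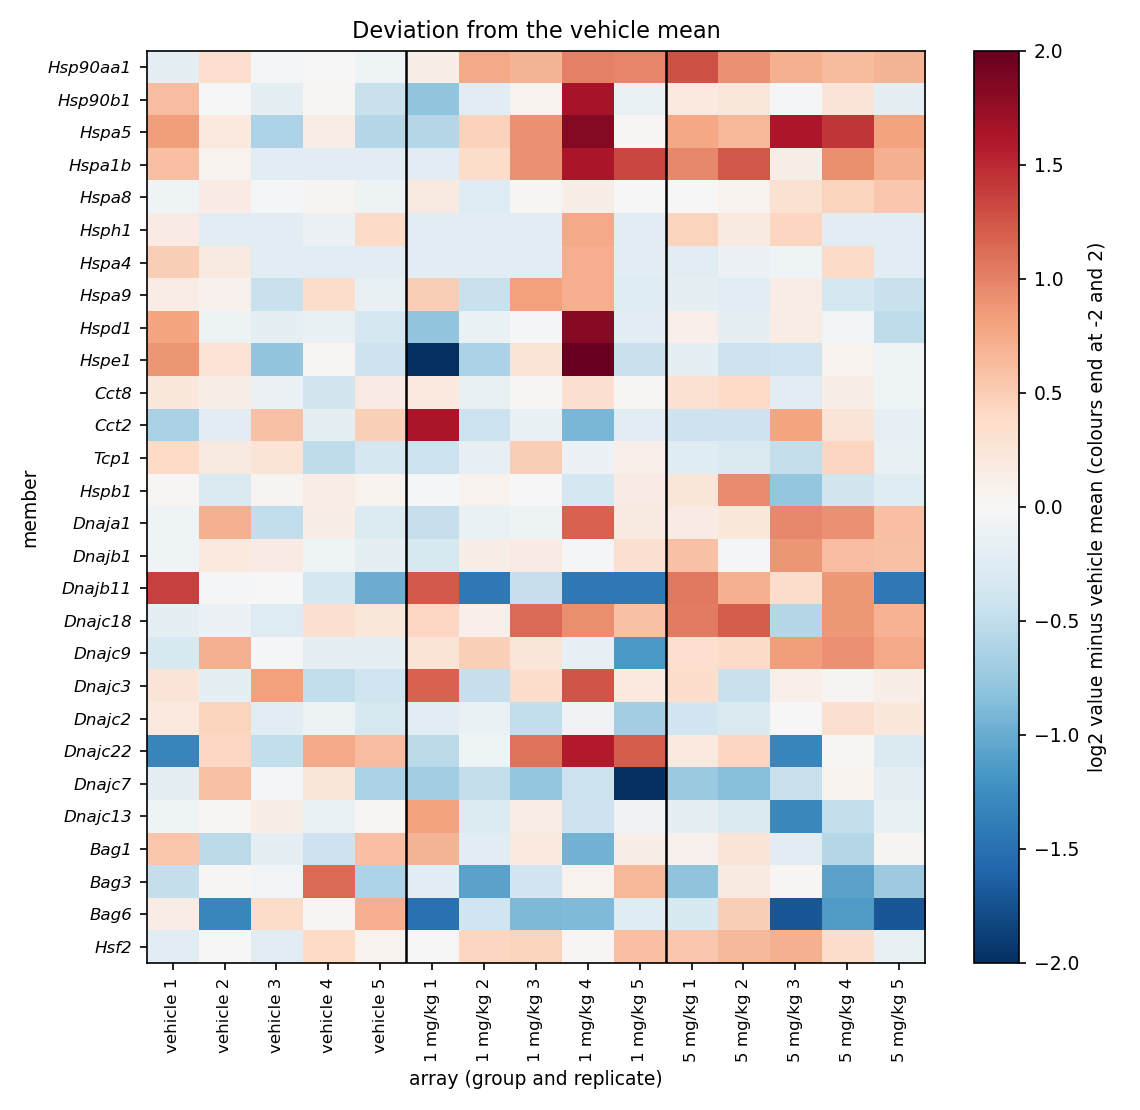
The map shows the log2 value of each named gene on each array minus the gene's mean over the vehicle arrays, with arrays in columns and genes in rows, and colours ending at -2 and 2. Hsp90aa1 is above the vehicle mean on all 10 treated arrays, and replicate 4 at 1 mg/kg stands out for Hspd1, Hspe1, Hsp90b1 and Hspa5.

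Among the BAG genes, 2 of 5 tested were higher and 3 lower at 5 mg/kg than in vehicle. Bag6, whose product guards newly made membrane proteins in the cytosol, measured 43, 74, 16, 24 and 16 at 5 mg/kg, against 59, 21, 68, 54 and 87 in vehicle, and 19, 40, 28, 29 and 45 at 1 mg/kg. The groups overlapped, and the log2 difference was -0.87 ± 0.44 at 5 mg/kg (limma adjusted p = 0.688) and -0.78 ± 0.44 at 1 mg/kg (limma adjusted p = 0.848). With the floor at 32 the 5 mg/kg difference was -0.51. Bag3, a stress-inducible exchange factor that routes clients to autophagy, differed by -0.48 ± 0.37 at 5 mg/kg against vehicle, and by -0.20 without vehicle replicate 4. Bag1 differed by -0.08 ± 0.31 at 5 mg/kg against vehicle. Hsf2, the heat shock factor of the set, measured 43, 46, 49, 38 and 27 at 5 mg/kg, against 25, 29, 25, 39 and 31 in vehicle. The groups overlapped, and the log2 difference was 0.42 ± 0.21 (limma adjusted p = 0.688), which was 0.19 with the 18S covariate.

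Many of the genes had more than 1 probe set, which gives a second reading of the same arrays. Of the 212 probe sets of the 89 genes, 137 were tested, and 35 genes had at least 2 tested ones. Their differences at 5 mg/kg against vehicle had both signs in 12 of the 35 genes. Hsp90aa1 had 5 tested probe sets, with differences of 0.85, 0.62, 0.85, 0.59 and -0.06 from the brightest to the dimmest. Another of them, the one in the middle by brightness, measured 347, 289, 274, 260 and 198 at 5 mg/kg, against 142, 175, 155, 135 and 146 in vehicle, again without overlap. For the remaining tested ones these groups overlapped. The second brightest was as low as 264 at 5 mg/kg and as high as 299 in vehicle. At 1 mg/kg the 5 differences against vehicle were 0.71, 0.66, 0.54, 0.49 and -0.49. The 3 probe sets of Hspa5 gave 1.05, 0.80 and 0.50 at 5 mg/kg, the 4 of Hspa8 gave 0.28, 0.51, 0.16 and 0.41, and both of Dnajb1 gave positive values, 0.53 and 1.01. The 5 of Cct3 gave 0.84, -0.32, -0.28, -0.82 and 0.11, so the direction for this TRiC subunit rested on the probe set chosen.

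**Figure D4:**
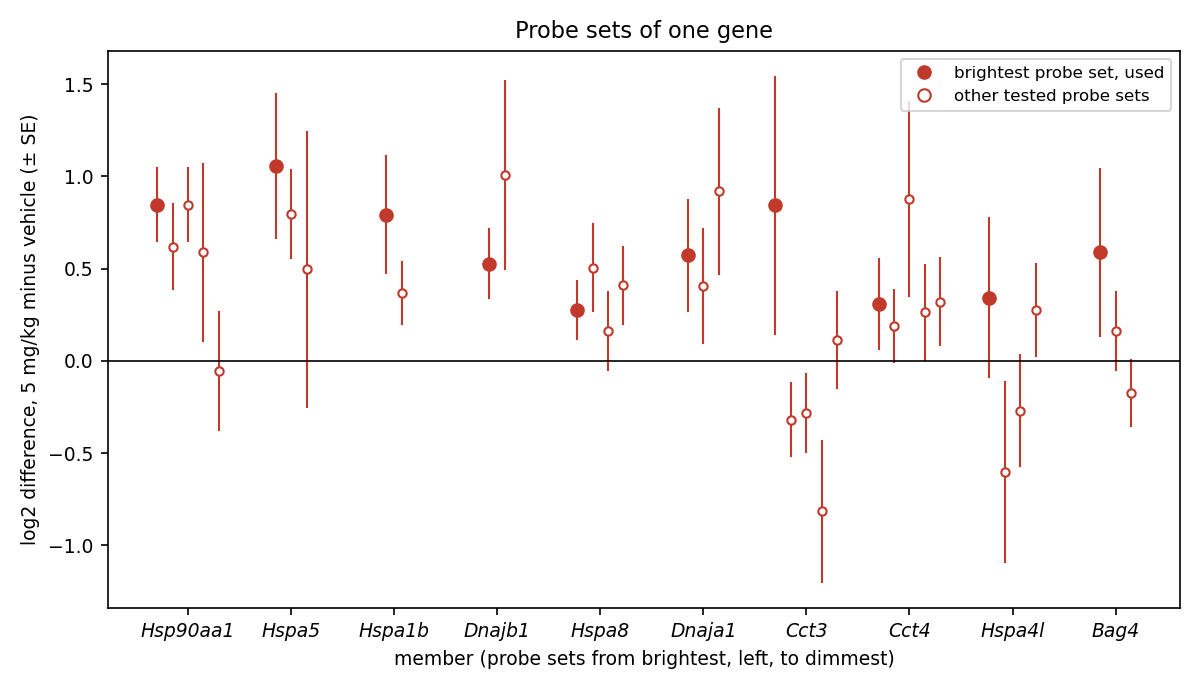
The log2 difference at 5 mg/kg minus vehicle, with its standard error, is plotted for every tested probe set of 10 genes, from the brightest, filled, to the dimmest. The probe sets lie on 1 side of 0 for Hspa5, Hspa1b, Dnajb1, Hspa8, Dnaja1 and Cct4, and on both sides for Hsp90aa1, Cct3, Hspa4l and Bag4.

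Genes that work with these chaperones gave no call either. Of 21 tested co-chaperones and cytosolic folding helpers, 0 passed the adjusted threshold in limma at 5 mg/kg against vehicle, 2 had an unadjusted p under 0.05, and 9 were higher and 12 lower. Over all genes 7.78% had such a p and 46.6% were higher, and these shares are the background of the lists that follow as well. The counts with such a p in this list and the next were near that share. Stub1, the ubiquitin ligase CHIP that acts on HSP70 and HSP90 clients, differed by 0.73 ± 0.24 (limma adjusted p = 0.337). Fkbp4, an immunophilin of the HSP90 receptor complex, differed by 0.69 ± 0.29 (limma adjusted p = 0.57). Of 23 tested endoplasmic reticulum folding and stress genes, 14 were higher and 9 lower, 0 passed the adjusted threshold in limma and 2 had an unadjusted p under 0.05. Atf4, a transcription factor of the integrated stress response, measured 132, 83, 280, 307 and 299 at 5 mg/kg, against 36, 116, 82, 136 and 94 in vehicle, a log2 difference of 1.197 ± 0.407 (limma adjusted p = 0.385). Sdf2l1, a BiP partner of the endoplasmic reticulum, differed by -0.43 ± 0.20 (limma adjusted p = 0.64). Of 14 mitochondrial folding and protease genes, 10 were higher and 4 lower, and 0 passed the adjusted threshold in limma, and 0 had an unadjusted p under 0.05. The 2 of smallest p were Yme1l1, a protease of the inner membrane, at 0.57 ± 0.31, and Timm44, part of the import motor, at 1.09 ± 0.66.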

How the data were processed

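Total RNA of 15 whole-blood samples was hybridised to arrays, 1 per mouse. Biotin-labelled cRNA was made from 200 ng RNA per the labels' protocols. The deposited values are intensity per probe set on a linear scale, some negative, as the values themselves show. The summarisation and any normalisation by the authors are not given in the sources used here, and the array medians show no common scale. The assumption of values normalised between arrays was therefore replaced by quantile normalisation. The 64 control probe sets of 45101 were left out, values under 16 were set to 16 (52.7% of them), and log2 was taken. Single-gene probe sets numbered 34945, with 932 of several genes and 9160 of none listed. A gene was tested if above the floor on at least 5 arrays.

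A linear model of the group means was fitted to all 15 arrays in limma 3.58.1 (R 4.3.3). Tests were two-sided, on 12 residual plus 3.90 prior degrees of freedom, and p-values were adjusted over 12499 genes by the Benjamini-Hochberg method. The fit was tested on simulated data. Array measures used exact two-sided permutation over samples, whose smallest p is 0.00794. The number of arrays limits the precision. Members and lists were chosen with earlier results of these data known. Named members are those past the threshold, the 6 of smallest p in each comparison, and a list chosen for role, and 2 genes of smallest p per pathway list. Replicate numbers were checked for pairing: same-numbered samples correlated at -0.28 to 0.35, and 3 of 15 pairs were best with their own number, so they were not treated as pairs. Symbols come from a platform annotation that can be old.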

Additional observations from a re-analysis of the deposited data

Results flagged for a closer look

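Within each group of 5 arrays, a value was marked when its gap to the nearest other array, divided by the range of the group, passed 0.71, with both taken on the log2 scale. This was examined for 84 groups of named genes, and 8 were marked, where chance marks about 5% of groups of normally distributed values. When all other arrays of a group lie at the floor the ratio is 1 whatever the value, so that rate does not hold here. The values printed are the normalised intensities on the linear scale. Dnajb11 was low on 5 mg/kg replicate 5, at the floor of 16, with the other arrays at 54.95 to 89.61. Dnajc13 was low on 5 mg/kg replicate 3, at 36.44, with the others at 64.39 to 80.19. Dnajc7 was low on 1 mg/kg replicate 5, at 17.21, with the others at 46.96 to 59.54.

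Dnajc9 was high on vehicle replicate 2, at 142.49, with the others at 70.5 to 85.03. Hspd1 was high on vehicle replicate 1, at 316.88, with the others at 146.69 to 171.45. Hspa4 was high on 1 mg/kg replicate 4, at 30.9, with the other 4 at the floor of 16. Hspa4 was also high on 5 mg/kg replicate 4, at 24.31, with the others at 16 to 17.65. Hsph1 was high on 1 mg/kg replicate 4, at 31.48, with the other 4 at the floor.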

How the results depend on the processing

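The results were recomputed under 14 alternatives and with each of the 15 arrays left out in turn; leaving out the arrays of lowest and highest median intensity together was chosen after seeing the data. No chaperone gene passed the threshold in any of them except Hsp90aa1 at 5 mg/kg against vehicle with array weights (1 gene, log2 difference 0.86). The number of members at an unadjusted p under 0.05 at 5 mg/kg ran from 0 to 9, and testing every probe set on its own gave 10 probe sets of 6 genes. The median of the members at 5 mg/kg against vehicle was 0.06 and became 0.21 without scaling and 0.17 with the 18S covariate, and at 5 mg/kg against 1 mg/kg it became 0.14 without scaling. Without scaling the median of all genes moved as well, up by 0.13 and then at 0.10 at 5 mg/kg against vehicle, and up by 0.09 and then at 0.07 at 5 mg/kg against 1 mg/kg, while with the 18S covariate it was -0.05.

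Of all genes, 11 passed at 5 mg/kg against vehicle. The count was 1 without scaling, 45 with a floor of 32, 22 above the floor on at least 1 array, 33 with probe sets of a gene averaged, 32 with every probe set on its own, 0 with the 18S covariate, 65 with array weights, 17 with only the 2 groups compared, 17 without the arrays of extreme median, and 8 to 22 with 1 array left out, the highest being 19 and 22 without 1 mg/kg replicates 1 and 5. At 1 mg/kg the count of 1 became 0 without scaling, above the floor on at least 1 or all 15 arrays, with the replicate block, the 18S covariate, array weights, only the 2 groups and without the extreme arrays, and 0 to 2 with 1 array left out. At 5 mg/kg against 1 mg/kg the count of 0 became 1 with a floor of 8, and 0 to 1 with 1 array left out. As a paired fit, the replicate block gave 0 members past the threshold in every comparison.

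Of the 40 gene differences, 12 changed sign somewhere, none of them past the threshold. At 5 mg/kg against vehicle, without scaling, where all genes shifted by 0.13, the values were Hspa4 0.10, Hspd1 0.029, Hspb1 0.087, Bag1 0.061, Dnajc2 0.11 and Dnajc22 0.14. With the 18S covariate they were Hspa9 0.031, Hspa4 0.48, Hspd1 0.94, Hspe1 1.17, Tcp1 0.15, Cct2 -0.94 and Dnajc2 0.26. With array weights Hspa4 was 0.0009245, Cct2 -0.066 and Dnajc2 0.006412. With the mean of probe sets Dnajc3 was -0.00057 and Dnajc2 0.074, and with a floor of 8 Hspa4 was 0.026. With 1 array left out, the ranges were -0.16 to 0.069 for Hspa4, -0.19 to 0.090 for Hspd1, -0.40 to 0.018 for Hspe1, -0.18 to 0.16 for Cct2, -0.22 to 0.067 for Bag1, -0.086 to 0.24 for Dnajc3, -0.020 to 0.25 for Hsp90b1, -0.29 to 0.15 for Hspb1, -0.11 to 0.086 for Dnajc2 and -0.52 to 0.098 for Dnajc22. The cause was not tested. Genes near the floor have signals too close to background for a size.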
